A study of Mus musculus with 6 samples.

Results

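Acute-phase proteins, complement and the C/EBP and STAT3 transcription factors were followed gene by gene in cultured 4T1 cells, a mouse mammary carcinoma line. The 10 genes Lcn2, Saa3, C3, Cfb, Cp, Hp, Slpi, Cebpb, Cebpd and Stat3 were taken by name, with every probe that the array's annotation gives them. 9 of the 10 had a probe, 17 probes in all among the 45281 on the array, and no probe used here was named C3, which was therefore not analysed here. A probe was kept when it was detected, which means a detection p-value under 0.05 on at least 3 of the 6 arrays. 12 of the 17 probes were kept, and they gave 8 genes among the 9348 tested.

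Total RNA was collected from 3 cultures of 4T1-SC, which carried a vector with a scrambled hairpin, and from 3 cultures of 4T1-MMP3lo, which carried a short hairpin RNA against Mmp3. Both groups were grown in serum-containing RPMI, and the study's methods describe propagation under the antibiotic that selects for the plasmid, puromycin for the hairpin vectors. The sample titles give 3 dates, each shared by 1 array of each group, and they do not state whether a date is that of culture, extraction or hybridisation. Replicate 1 of both groups bears the first date. The title of the 4T1-MMP3lo arrays also bears a suffix that may name a single clone, and n therefore counts cultures of these cells, not separate selections of the hairpin.

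These genes belong to the acute-phase response, in which inflammatory cytokines raise the secretion of defence proteins by the liver and by epithelial surfaces. Interleukin 6 and its relatives signal through receptors to STAT3, and together with NF-κB and interleukin 1 they induce the C/EBP factors C/EBPβ and C/EBPδ, which bind the promoters of many acute-phase genes. Mammary epithelium makes several of the same proteins at involution, when milk production ends and STAT3 and C/EBPδ are active.

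The promoters of the 3 secreted-protein genes that differed in the same direction on all 3 dates are shown first, because C/EBP factors are known to bind genes of this kind. Each window runs from 250 bases before the annotated start to 50 after it, 5′ to 3′ along the gene, from RefSeq on GRCm38.p6. Lcn2 lies at chr2:32387690-32387989, Saa3 at chr7:46715627-46715926 and Slpi at chr2:164356458-164356757, all on the minus strand. Capitals mark matches to a C/EBP motif, TTNNGNAA, searched on both strands.
Lcn2: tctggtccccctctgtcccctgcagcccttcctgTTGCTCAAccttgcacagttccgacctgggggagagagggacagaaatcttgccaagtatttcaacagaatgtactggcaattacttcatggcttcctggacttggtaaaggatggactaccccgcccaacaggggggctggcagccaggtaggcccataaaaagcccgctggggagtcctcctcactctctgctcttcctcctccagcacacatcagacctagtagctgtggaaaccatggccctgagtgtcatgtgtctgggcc
Saa3: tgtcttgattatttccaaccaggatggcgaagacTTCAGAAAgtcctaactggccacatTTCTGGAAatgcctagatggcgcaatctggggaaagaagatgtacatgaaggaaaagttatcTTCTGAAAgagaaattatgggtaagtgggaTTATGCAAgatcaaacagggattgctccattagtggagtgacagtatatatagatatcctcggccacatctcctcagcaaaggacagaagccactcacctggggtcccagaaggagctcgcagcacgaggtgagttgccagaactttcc
Slpi: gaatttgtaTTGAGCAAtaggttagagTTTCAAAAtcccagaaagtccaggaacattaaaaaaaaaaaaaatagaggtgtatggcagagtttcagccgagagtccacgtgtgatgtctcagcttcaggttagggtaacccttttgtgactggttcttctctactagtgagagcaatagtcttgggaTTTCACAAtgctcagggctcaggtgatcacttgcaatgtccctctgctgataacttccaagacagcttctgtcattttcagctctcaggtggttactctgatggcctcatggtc
The Saa3 window held 4 such matches, whose first bases lie at −216, −191, −129 and −99 from the start. The Slpi window held 3, at −241, −223 and −64, and the Lcn2 window held 1, at −216. The motif is loose. Of the 32851 mouse promoters searched 40.7% held at least 1 match, 3.6% at least 3 and 0.852% at least 4. Among the other windows, C3 held 3 matches, Stat3 held 2, the 2 windows of Cp held 1 each and Cebpb held 0, so that 6 of the 7 genes with a window held a match. An NF-κB motif, GGG and CC separated by any 5 bases, matched once in the Lcn2 window, at −102 and not overlapping the C/EBP match, and it was in 50.8% of all promoters. The C3 window held 4 matches to it, that of Cebpb 3 and the second of Cp 1. Those of Saa3, Slpi and Stat3 and the first of Cp held 0. A STAT motif, TTCNNNGAA, is in 8.3% of promoters and matched in none of the 8 windows found for 7 of the 10 genes. The matches describe letters and not binding, which was not measured.

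Mmp3, the targeted gene, did not separate the groups. Its log2 level was 11.52, 12.98 and 13.04 on the 4T1-SC arrays in date order and 10.64, 13.40 and 13.33 on the arrays labelled 4T1-MMP3lo. The difference was −0.06 (standard error 0.74, limma adjusted p = 0.99). The paper reports that silencing lowered the targeted gene in this cell line, in RNA and in protein. The array comparison did not show that lowering, and the reason was not tested. The hairpin labels are therefore used below as labels only. On the first date Mmp3 fell by 2.11 (limma adjusted p = 0.0159). This call was lost without 4T1-SC replicate 3 (limma adjusted p = 0.104), without 4T1-MMP3lo replicate 2 or 3 (0.0597 and 0.0521) and with all probes (0.0564). Over all genes 299 passed the date comparison and 102 the hairpin comparison, and results that rest on the first-date arrays are given with and without them.

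Levels below are background-corrected and normalised log2 intensities, and a hairpin difference is that of 4T1-MMP3lo less that of 4T1-SC. Rose and fell are written only where limma's adjusted p was under 0.05. Levels were not set against each other between probes, whose brightness depends on their sequence.

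Lcn2 encodes lipocalin 2, a secreted protein that binds bacterial siderophores and so withholds iron. Its scanner intensity was 1799.8, 11697.5 and 10734.7 on the 4T1-SC arrays in date order. On the arrays labelled 4T1-MMP3lo it was 5693.7, 19342.0 and 19510.5. Within each date the array labelled 4T1-MMP3lo was the brighter, but its first-date value lay below both later 4T1-SC values, so that the groups overlapped. The log2 level was 12.55 ± 1.43 (SD, n = 3) in 4T1-SC and 13.61 ± 1.10 (SD, n = 3) on those labelled 4T1-MMP3lo. The hairpin difference was 1.06 (95% interval −0.64 to 2.77), a 2.09-fold higher level, which did not pass the test (limma adjusted p = 0.638). The within-date differences were 1.44, 0.87 and 0.88. When single arrays were left out it ranged from 0.24 (4T1-SC replicate 1 removed) to 1.70 (4T1-MMP3lo replicate 1 removed), and in none of the 6 fits did it pass. With the date as a replicate block the main difference passed (standard error 0.20, limma adjusted p = 0.0494).

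Between dates the difference of Lcn2 was larger in size than between groups. On the first date Lcn2 fell by 2.19 (95% interval −2.62 to −1.77), a 4.57-fold lower level (limma adjusted p = 0.0027). The first-date level was lower by −2.48 in 4T1-SC and by −1.91 in the arrays labelled 4T1-MMP3lo, and first-date and later values did not overlap. Only 25 of the 9348 genes tested had a lower date difference in this fit. Without both first-date arrays the hairpin difference was 0.88 (limma adjusted p = 0.0178). The 4T1-MMP3lo values on the later dates were near the top of the scale, where the probe ranked 4 and 3 from the brightest on arrays whose highest intensities ran from 20449.5 to 20924, and the files carry no saturation mark.

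Saa3 encodes serum amyloid A3, an acute-phase apolipoprotein made outside the liver by epithelial cells, macrophages and fat. Its single probe was detected on all 6 arrays. The intensity was 106.8, 129.0 and 117.7 in 4T1-SC, against array medians of 96.6 to 112.6 over all probes. It was 178.7, 759.7 and 919.6 on the arrays labelled 4T1-MMP3lo. Every array labelled 4T1-MMP3lo lay above every 4T1-SC array, and the first-date array was the lowest of its group. The log2 level was 5.00 ± 0.14 (SD, n = 3) in 4T1-SC and 8.53 ± 1.79 (SD, n = 3) on those labelled 4T1-MMP3lo.

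The hairpin difference of Saa3 was 3.52 (95% interval 1.83 to 5.21), an 11.5-fold higher level, and no gene of the 9348 had a larger one in this fit. It did not pass the test over all genes (limma adjusted p = 0.0782). With the replicate block it passed (limma adjusted p = 0.0389). It also passed without 4T1-SC replicate 1 (3.54, limma adjusted p = 0.0253), without 4T1-MMP3lo replicate 1 (4.55, limma adjusted p = 0.000961) and without both first-date arrays (4.58, limma adjusted p = 0.000265). It did not pass without replicate 2 or 3 of 4T1-SC (limma adjusted p = 0.239 and 0.277) or of 4T1-MMP3lo (0.315 for each), with an offset of 50 (0.157) or with all probes (0.249). Array weights gave 4.48 (limma adjusted p = 2.67e-05). Without background correction the difference was 2.06 and did not pass.

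The hairpin difference of Saa3 was 1.41 on the first date, 4.45 on the second and 4.70 on the third. The difference of the first date minus that of the later dates was −3.17 (95% interval −3.89 to −2.44), which passed the test (limma adjusted p = 0.019) on 2 residual degrees of freedom. These come from the later arrays alone, since the first date has 1 array of each group with no replicate, and the value rests mainly on 4T1-MMP3lo replicate 1 (178.7 against 759.7 and 919.6). No gene had a lower value of this interaction in that fit. The call was lost when all probes, detected or not, were tested (limma adjusted p = 0.0572). In 4T1-SC the first-date level differed from the later dates by 0.07, and on the arrays labelled 4T1-MMP3lo by −3.10. The date difference over both groups was −1.52 and did not pass (limma adjusted p = 0.161), but it passed without 4T1-SC replicate 1 (−3.10, limma adjusted p = 0.00496) and was 0.0672 without 4T1-MMP3lo replicate 1.

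Slpi encodes secretory leukocyte protease inhibitor, which protects mucosal surfaces from neutrophil elastase. Its intensity was 2169.9, 2910.1 and 2938.6 in 4T1-SC. On the arrays labelled 4T1-MMP3lo it was 3457.9, 9166.6 and 10515.5. The groups did not overlap, and as with Saa3 the first-date array was the lowest of the 3 labelled 4T1-MMP3lo. The hairpin difference was 1.38 (95% interval 0.37 to 2.38), a 2.6-fold higher level, which did not pass the test (limma adjusted p = 0.24, or 0.0914 with the replicate block). The within-date differences were 0.36, 1.94 and 1.82. Their interaction with the first date was −1.52 and did not pass (limma adjusted p = 0.0895), except with array weights (0.0409). The hairpin difference passed without 4T1-MMP3lo replicate 1 (1.96, limma adjusted p = 0.0116) and without both first-date arrays (1.88, limma adjusted p = 0.0016), and with array weights (1.72, limma adjusted p = 0.00045), but not without any other single array (limma adjusted p from 0.113 to 0.71). The date difference of Slpi was −0.98 (limma adjusted p = 0.113). It was −0.22 without 4T1-MMP3lo replicate 1 and −1.74 without 4T1-SC replicate 1, where it passed (limma adjusted p = 0.0292).

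**Figure D1:**
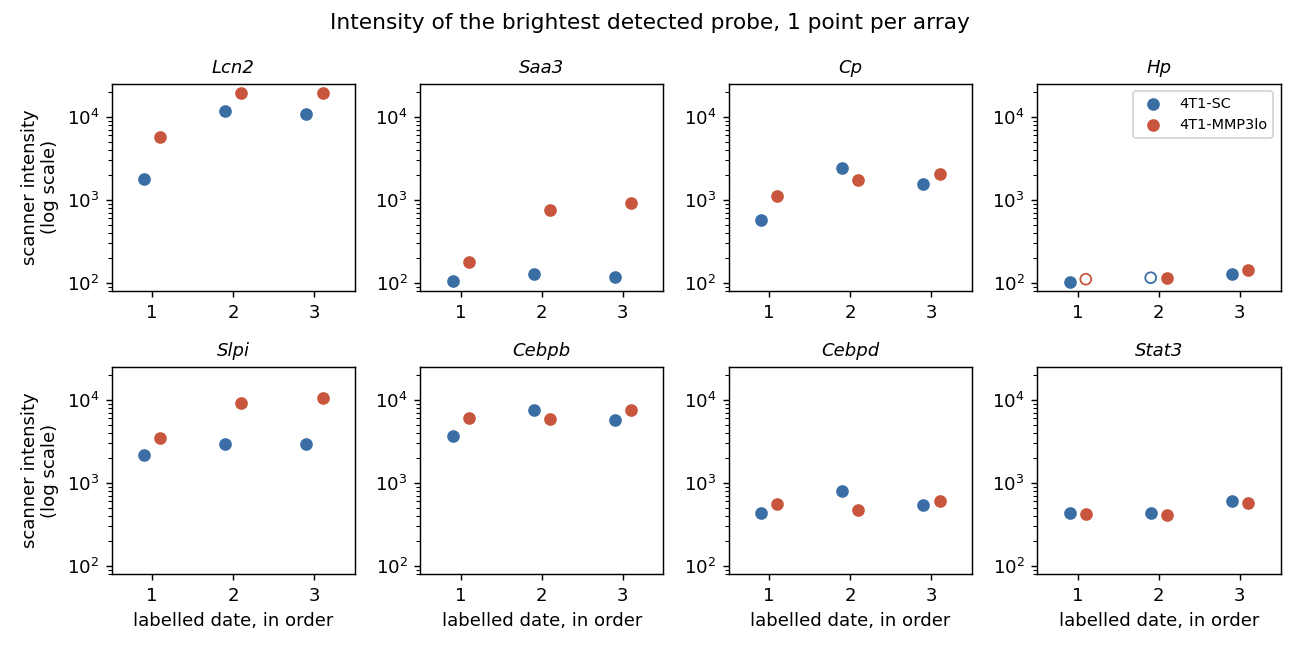
Scanner intensity (log scale) of the brightest kept probe of each of the 8 genes, 1 point per array, against the order of the labelled dates. Blue points are 4T1-SC and red points 4T1-MMP3lo, and open points were not detected. Lcn2 was dimmest on the first date in both groups, while Saa3 was 759.7 and 919.6 only on the later arrays labelled 4T1-MMP3lo.

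Cp encodes ceruloplasmin, the copper-carrying ferroxidase of plasma. Its brightest probe had intensities of 573.9, 2452.7 and 1548.6 in 4T1-SC. On the arrays labelled 4T1-MMP3lo it had 1102.9, 1741.7 and 2041.8. The groups overlapped, with a hairpin difference of 0.23 (95% interval −0.88 to 1.34, limma adjusted p = 0.911). Both first-date arrays were dimmer than all 4 later ones, and Cp on the first date fell by 1.31, a 2.48-fold lower level (95% interval −1.83 to −0.79, limma adjusted p = 0.0364). Array weights ended this call (limma adjusted p = 0.0601), as did all probes (0.0737) and 3 dates as a factor (0.074). So did leaving out replicate 1 or 3 of 4T1-SC (0.191 and 0.122) or replicate 2 or 3 of 4T1-MMP3lo (0.104 and 0.0814).

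Cp had 4 probes, which allow a comparison within the gene. A second probe detected on 6 arrays, ILMN_2520239, had a date difference of −1.38 in a fit of all kept probes (limma adjusted p = 0.0117), and its hairpin difference was 0.72 (standard error 0.48). The probe ILMN_2555238, which carries another accession, was detected on 4 arrays at intensities of 97.1 to 124.7 and had a date difference of −0.02. The remaining probe was detected on 1 array. The date difference was therefore measured by both bright probes and not by the dim ones.

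Hp encodes haptoglobin, which captures free haemoglobin, and it stayed near the limit of detection. Its best probe was detected on 2 of 3 arrays in each group, at intensities of 102.6, 116.1 and 127.2 in 4T1-SC. On the arrays labelled 4T1-MMP3lo the intensities were 111.5, 114.5 and 145.3. The groups overlapped, with a difference of 0.12 (95% interval −0.52 to 0.77, limma adjusted p = 0.922). Of the other probes, ILMN_2944824 was detected on 2 arrays, both labelled 4T1-MMP3lo, and ILMN_2668509 on 0.

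Complement is a cascade of plasma proteins in which C3 is cleaved and factor B joins it to form the convertase of the alternative pathway. Cfb, which encodes factor B, had 1 probe, and its intensities of 91.2 to 116.1 were above background on 0 of the 6 arrays. Neither gene therefore has a level here.

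Cebpb encodes C/EBPβ, a leucine-zipper factor of the CCAAT/enhancer-binding family, also called NF-IL6. Its intensity was 3674.4, 7587.5 and 5762.9 in 4T1-SC. On the arrays labelled 4T1-MMP3lo it was 5964.3, 5818.2 and 7627.0. The groups overlapped and the order of the groups turned over on the second date. The hairpin difference was 0.23 (95% interval −0.30 to 0.75, limma adjusted p = 0.769). The first-date log2 levels lay below all the later ones, and the date difference of −0.44 (95% interval −0.84 to −0.05) did not pass the test over all genes (limma adjusted p = 0.158).

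Cebpd encodes C/EBPδ, which rises early in inflammation and in mammary involution. Its detected probe had intensities of 437.3, 794.6 and 549.9 in 4T1-SC. On the arrays labelled 4T1-MMP3lo it had 554.4, 475.3 and 610.5. The highest value was that of 4T1-SC replicate 2, and the groups overlapped. The hairpin difference was −0.19 (95% interval −0.65 to 0.27, limma adjusted p = 0.778) and the date difference −0.20 (limma adjusted p = 0.545). The other Cebpd probe was detected on 0 arrays.

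Stat3 encodes the factor that carries the interleukin 6 signal to the nucleus. All 3 of its probes were detected on all 6 arrays. The brightest had intensities of 435.9, 441.3 and 615.0 in 4T1-SC and, in the other group, of 429.1, 417.0 and 580.4. The third date was the brightest in both groups for this probe, but not for the others. Its hairpin difference was −0.16 (95% interval −0.73 to 0.41, limma adjusted p = 0.871), and the other probes gave −0.25 and −0.58, neither past the test. The transcript level says nothing of phosphorylation, through which STAT3 is activated.

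The 95% intervals of the hairpin differences were −0.30 to 0.75 for Cebpb, −0.65 to 0.27 for Cebpd and −0.73 to 0.41 for Stat3. Each overlapped that of Lcn2 (−0.64 to 2.77), and none overlapped that of Saa3 (1.83 to 5.21). The interval of Slpi (0.37 to 2.38) was overlapped by those of Cebpb and Stat3 but not by that of Cebpd. The genes were not tested against each other.

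**Figure D2:**
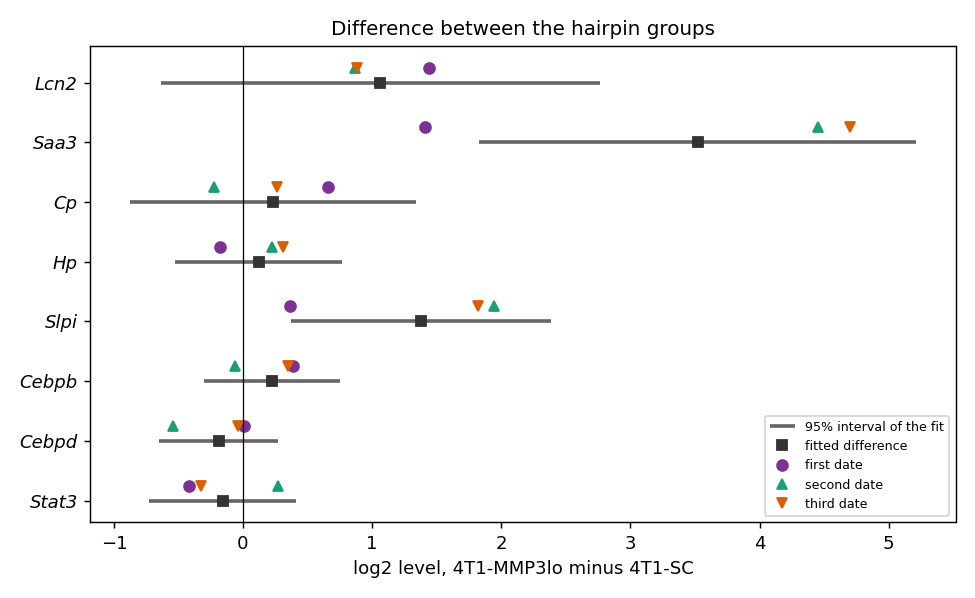
Difference in log2 level between the arrays labelled 4T1-MMP3lo and 4T1-SC for each gene, with squares and bars for the fitted difference and its 95% interval and coloured symbols for the difference within each date. Lcn2, Saa3 and Slpi lay above 0 on all 3 dates, and Saa3 was at 1.41 on the first date against 4.45 and 4.70 later.

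Counted over the 8 genes tested, 0 passed the hairpin comparison in either direction. Over all 9348 genes 0.599% passed as higher and 0.492% as lower. With the replicate block 2 of the 8 passed, Lcn2 and Saa3, among 194 genes. At an unadjusted p under 0.05 limma held 1138 genes (12.2%), 2 of the 8 among them (Saa3 and Slpi). The methods' test held 1 of the 8 (Saa3), and its share over all genes is not given here. At the methods' thresholds of 2-fold and p under 0.01 that test called 120 genes and 0 of the 8. 6 of the 8 differences were positive, against 52.3% of all genes, and their median was 0.23 against 0.02 over all genes. 3 of the 8 were higher on all 3 dates, against 20.3% of all genes, and 0 were lower on all 3. In 2 of the 8, Saa3 and Slpi, the groups did not overlap, while 17.7% of all genes had groups without overlap.

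In the date comparison, of the 8 genes 2 fell on the first date, Lcn2 and Cp, and 0 rose in limma's fit, where 2.11% of all genes fell and 1.09% rose. At an unadjusted p under 0.05 there were 5 of the 8, against 26.0% of all genes. The 95% intervals of Hp, Cebpd and Stat3 held 0. All 8 differences were negative, against 47.8% of all genes, with a median of −0.71 against 0.02 over all genes, although that of Saa3 was 0.0672 without 4T1-MMP3lo replicate 1 and a second probe of Stat3 (ILMN_2698046) gave 0.08. First-date and later levels did not overlap in 4 of the 8, namely Lcn2, Cp, Cebpb and Cebpd, against 33.5% of all genes. For Cebpd the gap was narrow, from 8.7688 on the first date to 8.7739 later. The scanner intensities of Cebpb and Cebpd before normalisation did overlap between the first and later dates. The interaction was called in 1 of the 8, Saa3, against 0.877% of all genes. The 8 genes are not independent of each other, and 2 arrays stood against 4.

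**Figure D3:**
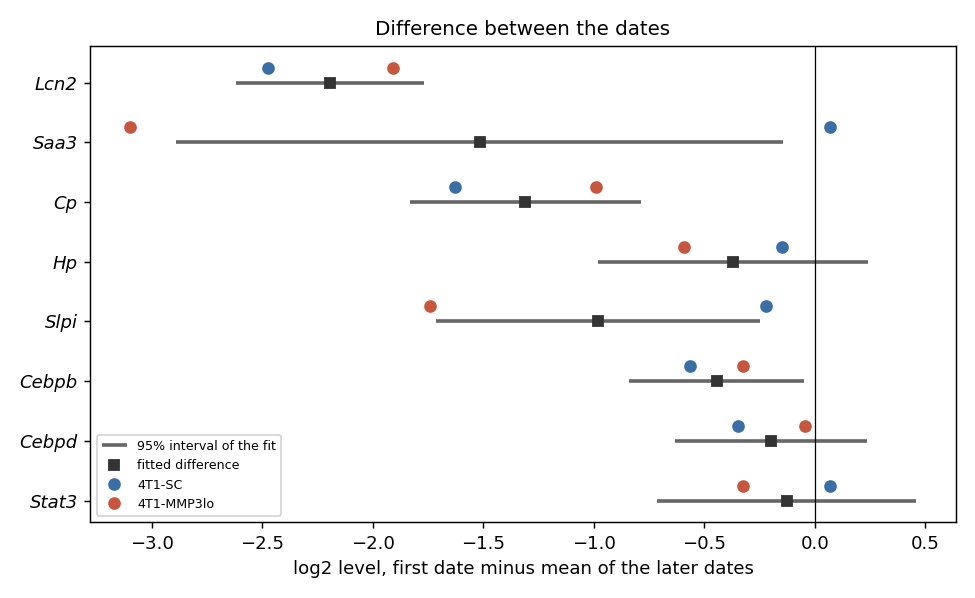
Log2 level on the first date minus the mean of the later dates for each gene, with squares and bars for the fitted difference and its 95% interval and circles for each group. All fitted differences lay below 0, from −2.19 for Lcn2 to −0.13 for Stat3, and the groups differed most for Saa3.

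Around these genes, further acute-phase proteins were mostly undetected in the cultures. Of 30 other acute-phase genes 25 had a probe and 2 were tested, Cd14, the lipopolysaccharide co-receptor, and Lrg1, a leucine-rich glycoprotein of plasma. Neither passed a comparison, with date differences of −0.60 for Cd14 (limma adjusted p = 0.112) and −0.90 for Lrg1 (limma adjusted p = 0.0937). Serpina3h, which the paper's list of changed genes gives as lower in 4T1-MMP3lo, was not among the genes tested here. Other complement components gave 9 tested genes of 23, of which 1 rose and 0 fell between the hairpin groups. The gene that rose was Fcna, which encodes ficolin A, a lectin that starts the lectin pathway of complement. The intensity of Fcna was 101.3, 123.7 and 125.8 in 4T1-SC, and on the arrays labelled 4T1-MMP3lo it was 163.5, 239.8 and 265.9, so that the groups did not overlap. The hairpin difference was 1.996 (standard error 0.33, limma adjusted p = 0.0329). The call was lost without background correction (0.86, limma adjusted p = 0.142), and without replicate 2 or 3 of 4T1-SC (0.143 and 0.129) or of 4T1-MMP3lo (0.184 and 0.199). It was also lost with an offset of 50 (0.0821), with all probes (0.1285) and in the methods' test (adjusted p = 0.274). Fcna was not detected on 4T1-SC replicate 1, and its 4T1-SC intensities lay near the array medians of 96.6 to 112.6. The median over the 9 was 0.20. Complement regulators and receptors gave 2 tested genes of 18, Cr1l at 0.29 and the integrin chain gene Itgb2 at −0.70, and neither passed. Among other C/EBP factors 2 of 5 were tested, Cebpg and Ddit3, with hairpin differences of 0.11 and 0.54 that did not pass.

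The interleukin 6 family and its JAK and STAT pathway gave 16 tested genes of 24. The receptor gene Il11ra1 is on this list but was not among the 16. The paper's own list of changed genes gives it as higher in 4T1-MMP3lo. Between the hairpin groups 0 rose and 0 fell in limma's fit, 3 had an unadjusted p under 0.05 (12.2% of all genes did), and the median was 0.05. On the first date 4 fell and 0 rose, 13 of the 16 were lower, and the median was −0.75. Over all genes 2.11% fell, 47.8% were lower and the median was 0.02. The genes that fell were the cytokine genes Il11 and Lif, the receptor gene Osmr and Cish, a feedback inhibitor of STAT signalling. The intensity of Il11 was 109.4, 253.6 and 268.8 in 4T1-SC, and on the arrays labelled 4T1-MMP3lo it was 154.1, 429.5 and 479.1. Its date difference was −2.32 (standard error 0.19, limma adjusted p = 0.00252), and it passed under every alternative run for this comparison, at −1.29 without background correction. Cish fell by 1.38 (limma adjusted p = 0.0226), Lif fell by 0.96 (limma adjusted p = 0.0396) and Osmr fell by 0.88 (limma adjusted p = 0.0421). Array weights ended the calls of Lif and Osmr (limma adjusted p = 0.111 and 0.124), and a median shift ended that of Osmr (0.0563). All 3 calls were lost with all probes and with 3 dates as a factor. They were also lost without 4T1-SC replicate 1, at adjusted p of 0.127 for Cish, 0.117 for Lif and 0.186 for Osmr, and likewise without replicate 2 or 3 of either group, at up to 0.137. Lif lost it without 4T1-MMP3lo replicate 1 too (0.0506). Socs3, the feedback inhibitor most used as a STAT3 target, had a hairpin difference within dates of −0.14, 1.07 and 0.60. Its fitted difference of 0.51 did not pass (limma adjusted p = 0.561). Other genes of the list differed in sign on the later dates. Within dates Bcl3 had 0.61, 1.285 and 1.19, Junb 0.08, −1.71 and −1.28, and Pim1 0.89, −0.36 and −0.27. Of the 16 fitted hairpin differences 10 were positive, against 52.3% of all genes.

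Iron, copper and haem handling, the process in which lipocalin 2, ceruloplasmin and haptoglobin take part, gave 9 tested genes of 14. Of these 9, 0 passed the hairpin or the date comparison in limma's fits, with 2 and 4 at an unadjusted p under 0.05, against 12.2% and 26.0% of all genes. The interaction was called in 2, against 0.877% of all genes, Ltf, which encodes the iron-binding milk protein lactoferrin, and Slc40a1, which encodes the iron exporter ferroportin. The intensity of Ltf was 112.4, 1145.6 and 1499.9 in 4T1-SC, and on the arrays labelled 4T1-MMP3lo it was 119.3, 167.2 and 171.9. Its interaction was 3.47 (limma adjusted p = 0.0323) and its hairpin difference −2.75 (limma adjusted p = 0.407). For Slc40a1 the interaction was 2.245 (limma adjusted p = 0.0367). Both calls were lost without background correction, where the values were 2.80 and 1.30 (limma adjusted p = 0.0655 and 0.0776). On the later dates both were lower on the arrays labelled 4T1-MMP3lo, the opposite sign to Saa3. Antiproteases and other whey acidic proteins, the class of Slpi, gave 5 tested genes of 14, and 0 passed any of the 3 comparisons in limma, with 0, 1 and 1 at an unadjusted p under 0.05 in the hairpin, date and interaction comparisons (12.2%, 26.0% and 16.3% of all genes). Their hairpin median was −0.27, and Serpinb2 had −0.94 (limma adjusted p = 0.504) and Spint1 −0.27 (limma adjusted p = 0.712). Serpinb2 was kept through the 4T1-SC arrays alone, where its intensity was 167.9, 122.7 and 116.5. On the arrays labelled 4T1-MMP3lo it was not detected (110.5, 109.7 and 108.9), so that no weight is put on its difference.

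**Figure D4:**
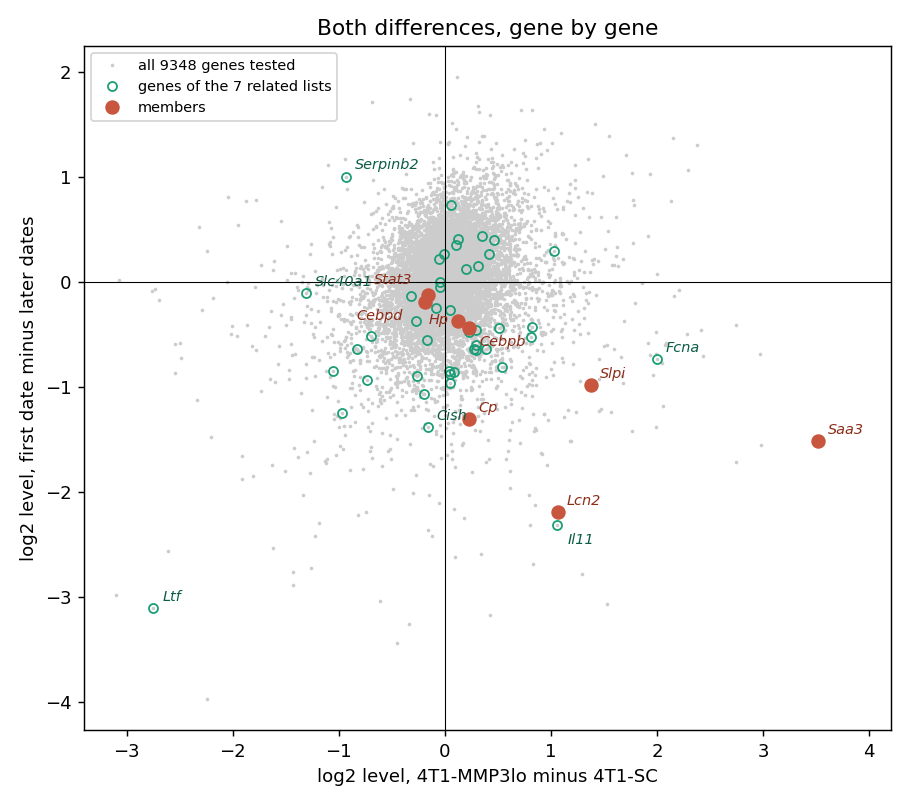
Hairpin difference (horizontal) against date difference (vertical) in log2 level, 1 point per gene, with all 9348 genes in grey, genes of the 7 related lists as green rings and the 8 tested genes in red. Saa3 lies farthest to the right at 3.52, Lcn2 lies beside Il11 near −2.2 on the vertical axis, and Cebpb, Cebpd, Stat3 and Hp lie in the central cloud. Both axes use the same 6 arrays.

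The profile of a gene over the 6 arrays was compared with that of every other gene by Pearson's r, as a description with n = 6 arrays that share dates and labels. For Lcn2 the closest were Ciz1, Galnt15 and Rbbp9, with r of 0.996 for each, and 95 genes had r over 0.95. For Saa3 they were Hhip (r = 0.997), Itpripl2 (r = 0.996) and Clec4d (r = 0.995), with 86 genes over 0.95. For Cebpb they were Vegfa (r = 0.993), Flt1 (r = 0.987) and Gstm5 (r = 0.985), with 42 genes over 0.95.

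Markers of other cell types were read beside these values. Of 7 epithelial markers, the keratin genes Krt8, Krt18, Krt19 and Krt14 and the cadherin gene Cdh1 were detected, while Epcam and Krt5 were detected on no array. Of these 5 genes 0 had a positive hairpin difference, against 52.3% of all genes, and their median was −0.66 against 0.02 over all genes. From them Krt14 (−1.11, limma adjusted p = 0.436) and Cdh1 (−0.72, limma adjusted p = 0.326) are named. In limma 0 of the 5 passed, with 1 at an unadjusted p under 0.05, against 12.2% of all genes. The epithelial markers' summed intensity was 10776.6 to 20394.7 in 4T1-SC and 12165.5 to 14509.7 on the arrays labelled 4T1-MMP3lo. All 8 hepatocyte markers, Alb and Apoa1 among them, were detected on no array. Of 10 leukocyte markers with a probe, 7 were detected on no array, among them Ptprc, Adgre1, Itgam, Mpo and S100a9. The leukocyte markers' summed intensity was 1040.9 to 1502.6 in 4T1-SC and 1158.5 to 3095.6 on the arrays labelled 4T1-MMP3lo. This sum includes S100a8, and a sum without it was not taken. Csf1r and Cd3e, also tested, stayed near background. Csf1r had 99.1 to 133.1 in 4T1-SC and 111.2 to 116.4 on the arrays labelled 4T1-MMP3lo, and Cd3e had 107.3 to 116.4 and 121.4 to 134.1. S100a8, a calcium-binding alarmin gene of neutrophils that epithelial cells can also make, had intensities of 166.0, 497.6 and 402.7 in 4T1-SC, and on the arrays labelled 4T1-MMP3lo 174.0, 1810.6 and 2075.3. On the first date it fell by 3.07 (limma adjusted p = 0.0372) and its interaction was −2.86 (limma adjusted p = 0.0198), the same sign as that of Saa3. The date call of S100a8 was lost without replicate 2 or 3 of 4T1-SC (0.0756 and 0.122) or of 4T1-MMP3lo (0.0972 and 0.0804), without background correction (0.0572), with all probes (0.102) and with 3 dates as a factor (0.0788). Its interaction call was lost with all probes (0.0572). The fibroblast markers' sum was 826.7 to 1208.9 against 1076.1 to 1409.8, with Pdgfra the only 1 of 8 tested, where its date difference was −1.26 (limma adjusted p = 0.0229), a call lost without any 1 of 4 arrays (adjusted p up to 0.127). The date call of Pdgfra was also lost with all probes (limma adjusted p = 0.0543) and with 3 dates as a factor (0.0654). Of 5 endothelial markers 1 was tested, Kdr, which passed no comparison. The part of these levels in the results above was not tested.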

How the data were processed

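RNA of 6 cultures, 3 of 4T1-SC and 3 of 4T1-MMP3lo, was measured on bead arrays with 1 colour. The authors deposited linear scanner intensities for each array, each with a detection p-value. A second deposited table held log2 values, whose column medians were 6.74786, 6.74674 and 6.74674 for 4T1-SC and 6.7471, 6.74674 and 6.74674 for 4T1-MMP3lo. These values equalled quantile-normalised log2 intensities, with no background correction and no centring, within 5e-09. The software behind these files is not given in the sources used here. The share of probes detected ran from 36.93% to 38.75% over the arrays.

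Intensities and detection p-values were background-corrected and quantile-normalised with neqc of limma 3.58.1 in R 4.3.3, with an offset of 16. Of 45281 probes, 34885 had 1 gene symbol in the platform annotation, 18 had several and 10378 were unnamed here. Symbols were updated by gene identifier (34807) or accession (11), and 67 were kept as given. Probes with a detection p-value under 0.05 on 3 or more arrays were kept (16969), and the brightest stood for its gene (9348 genes). Groups were compared with lmFit and eBayes, with Benjamini-Hochberg adjustment over all 9348 genes. The hairpin comparison had no covariate, the date comparison (2 arrays against 4) had the group as covariate, and the interaction was the hairpin difference on the first date minus that on the later dates.

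Replicates of the same number share a date in the labels, and their deviations from the group means correlated at 0.442, 0.212 and 0.283, so that the numbers were taken to pair the arrays. The pairs of replicates 2 and 3 crossed gave 0.235 and 0.309, so that the data alone do not tell these apart. Alternatives tried were uncorrected background, the authors' table, an offset of 50, a median shift, all probes, the mean of a gene's probes, each probe by itself, array weights, the replicate block, the methods' test, 3 dates as a factor and leaving out arrays. Leaving out arrays in the date comparison, and both first-date arrays, were chosen after seeing the data.

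The design text calls the cultures biological triplicates and nothing says that the cells were selected separately, so that p-values measure the spread between these cultures. The number of arrays limits the precision. The genes named are the 10 listed, Mmp3, in each list those past the threshold (at most 4 for each comparison) or else the 2 with the largest change, and for Lcn2, Saa3 and Cebpb the 3 most alike. Socs3, Bcl3, Junb, Pim1, Csf1r and Cd3e were named after their values were seen. The genes and lists were chosen with earlier results of these data known. The steps were tested on simulated data. Promoters came from RefSeq (GRCm38.p6). Plots used matplotlib 3.10.9 (Python 3.11.15).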

Additional observations from a re-analysis of the deposited data

Results flagged for a closer look

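The hairpin difference of Saa3 differed between the dates. It was 1.41 on the first date and 4.58 in the mean of the later dates, an interaction of −3.17 on the log2 scale (limma adjusted p = 0.019, with Benjamini-Hochberg adjustment over 9348 genes). The sign was positive on 3 of 3 dates, and the first date rests on 1 array of each group, so that the spread comes from the later arrays alone. The call was lost with all probes (0.0572).

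The same interaction was called in 3 genes of the related and marker lists. It was −2.86 for S100a8 (limma adjusted p = 0.0198), 3.47 for Ltf (limma adjusted p = 0.0323) and 2.245 for Slc40a1 (limma adjusted p = 0.0367). With all probes these calls were lost too (0.0572, 0.0974 and 0.0938), and those of Ltf and Slc40a1 were lost without background correction. Within dates, Ltf was lower on 3 of 3, while S100a8 was lower on the first date and higher on the other 2, and Slc40a1 was the reverse.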

How the results depend on the processing

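The hairpin comparison called 102 genes and 0 of the 8 members. It called 12 genes without background correction and 12 from the authors' table, which hold the same values, 38 with an offset of 50, 30 with all probes and 0 with the methods' test after adjustment, where 1138 genes had an unadjusted p under 0.05 in limma. At the methods' thresholds of 2-fold and p under 0.01 it called 120. Array weights gave 3103 genes with 2 members, Saa3 and Slpi. The replicate block gave 194 with 2 members, Lcn2 and Saa3, and changed no other member's call. Without both first-date arrays there were 1012 genes with 3 members, Lcn2, Saa3 and Slpi. Leaving out single arrays gave 0 to 1000 genes and 0 to 2 members, with 1000 genes without 4T1-SC replicate 1, 1 without its replicate 2, and 0 without its replicate 3 or without replicate 2 or 3 of 4T1-MMP3lo.

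The date comparison called 299 genes and 2 members. It called 92 genes and 1 member with all probes, 93 and 1 with array weights, and 45 and 1 with 3 dates as a factor. Single arrays left out gave 17 genes (4T1-SC replicate 3) to 1405 (4T1-MMP3lo replicate 1) and 1 to 3 members, with 53 and 94 genes without replicates 1 and 2 of 4T1-SC and 26 and 32 without replicates 2 and 3 of 4T1-MMP3lo. Lcn2 stayed past the threshold throughout, with an adjusted p of at most 0.0341, and Cp ranged up to 0.191.

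The interaction called 82 genes and 1 member. It called 24 genes without background correction and 24 from the authors' table, 224 with a median shift, 0 genes and 0 members with all probes, and 215 genes and 2 members with array weights. Leaving out single arrays was not run for it, since 1 array fewer empties a cell or leaves a single degree of freedom.

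In the fits by gene, signs of the members turned only when a single array was left out. The ranges were −0.31 to 0.64 for the hairpin difference of Cp, −0.15 to 0.32 for that of Hp and −0.38 to 0.037 for that of Stat3. For the date difference they were −0.33 to 0.0699 for Stat3 and −3.10 to 0.0672 for Saa3. Between probes of a gene, ILMN_2698046 of Stat3 had a date difference of 0.08 and an interaction of 0.34. The brightest Stat3 probe gave −0.13 and −0.39. The cause was not tested. Signal near background limits Saa3 and Fcna in 4T1-SC, as well as Hp and Cfb, and the top of the scale limits Lcn2.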
